A study of Mus musculus with 72 samples.

Results

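The genes described here are the constitutive proteasome subunit genes, taken as the gene names on the array that read Psma, Psmb, Psmc or Psmd followed by a number, leaving out the immunoproteasome genes Psmb8, Psmb9 and Psmb10. Within the family the names alone chose the genes, but the family was chosen with earlier results of these data known. The brightest detected probe stood for each gene. There were 36 such genes among 31093 gene names on the array, and 34 of them, among 16086 genes in all, were detected and tested. Psma8, a testis form of the alpha ring, was not well above background in any mouse, and Psmb11, a form of the thymus cortex, did not pass the filter on dim probes, so no fold change is given for either.

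The proteasome degrades proteins that carry a ubiquitin tag. Its core is a stack of rings, in which outer alpha rings (the Psma genes) guard the entrance and inner beta rings (the Psmb genes) hold the cutting sites, and its cap has a base of ATPases (the Psmc genes) that unfold the substrate, scaffold and receptor subunits, and a lid (most of the Psmd genes) that removes the ubiquitin. In nucleated blood cells the pathway turns over damaged and regulatory proteins, and maturing red cells use it while they clear their own proteins.

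The study compared neutron with x-ray exposure in the blood of male C57BL/6 mice that were 8 to 10 weeks old when the whole body was irradiated. On day 1 there were 5 sham controls, 6 mice given 0.25 Gy and 6 given 1 Gy of neutrons, 6 given 1 Gy of x-rays and 5 given 4 Gy of x-rays. On day 3 there were 5 controls, 6 mice given 0.25 Gy of neutrons and 5 given 1 Gy of x-rays. On day 7 there were 6 controls, 5 mice given 0.25 Gy and 6 given 1 Gy of neutrons, 5 given 1 Gy of x-rays and 6 given 4 Gy of x-rays. The neutron beam also carried a gamma-ray component, the sham mice were held in the neutron position with the beam off, and both radiations were compared with the same shams. The methods describe days 1 and 7 only, so the day 3 groups rest on the sample labels. Each mouse gave 1 array of globin-reduced whole-blood RNA taken by cardiac puncture.

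Levels below are log2 signals centred on the median of the detected probes of the array, so that 0 is that median. Of these probes and all others, 40.2% to 50.3% were well above background in the 1 Gy neutron mice on day 7, against 49.5% to 67.3% in the 12 other groups. The label of the tissue held, in that leukocyte, platelet and erythroid markers were detected, but transcripts of hepatocytes were present as well. Of 20 hepatocyte markers listed, 19 were on the array and 9 were detected, and 41 of the 72 arrays had a mean level of those 9 of at least 2.94, a gap above the next highest array at 1.74. These liver-rich arrays made up 24 of 28 on day 1, 11 of 16 on day 3 and 6 of 28 on day 7. In whole blood, fewer cells of a type and less RNA per cell cannot be told apart.

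Upstream sequence was available for part of the family, and a few promoters are shown, for some of the subunits that were called. Psmb5 and Psmb6 are catalytic subunits that were higher 1 day after x-rays at 4 Gy. Psmd9 is an assembly chaperone of the base that was higher on days 1 and 7. Psmd4 is the ubiquitin receptor, which changed most after 1 Gy of neutrons on day 7. The sequences are the 250 bases before a transcript start in RefSeq on build GRCm38.p6, written 5′ to 3′ on the strand of the gene. For Psmb6 that start lies inside the gene record, which opens at position 70525324 of chromosome 11, so the last bases of its window fall within the gene. Capitals mark each match to TGACNNNGC, the core of the antioxidant response element, found on either strand.
Psmb5, chr14:54617996-54618245, minus strand: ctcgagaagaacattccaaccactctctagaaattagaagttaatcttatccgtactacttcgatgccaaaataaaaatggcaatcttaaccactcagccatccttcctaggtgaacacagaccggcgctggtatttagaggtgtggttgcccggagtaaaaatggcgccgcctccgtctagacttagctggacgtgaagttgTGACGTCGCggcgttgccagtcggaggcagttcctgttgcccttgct
Psmb6, chr11:70525107-70525356, plus strand: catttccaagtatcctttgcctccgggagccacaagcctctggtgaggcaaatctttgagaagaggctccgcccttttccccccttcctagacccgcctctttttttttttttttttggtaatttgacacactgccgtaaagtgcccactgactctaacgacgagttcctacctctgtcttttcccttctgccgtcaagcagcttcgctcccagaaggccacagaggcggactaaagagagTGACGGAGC
Psmd9, chr5:123227940-123228189, plus strand: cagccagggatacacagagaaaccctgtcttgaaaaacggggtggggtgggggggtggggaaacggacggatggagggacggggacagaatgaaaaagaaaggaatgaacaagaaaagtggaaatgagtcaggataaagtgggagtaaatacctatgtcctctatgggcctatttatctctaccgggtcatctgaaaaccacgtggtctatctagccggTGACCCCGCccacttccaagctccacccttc
Psmd4, chr3:95042615-95042864, minus strand: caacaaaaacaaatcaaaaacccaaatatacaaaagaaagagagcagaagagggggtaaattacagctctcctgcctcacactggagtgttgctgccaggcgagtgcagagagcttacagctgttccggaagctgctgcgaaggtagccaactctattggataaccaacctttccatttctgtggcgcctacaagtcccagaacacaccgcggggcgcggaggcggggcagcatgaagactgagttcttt
The first 3 windows each held 1 match, which lay 47 bases before that start in Psmb5, 9 in Psmb6 and 31 in Psmd9, and the Psmd4 window held none. The Psmb6 match closes its window and so lies inside the gene record. Over windows from 250 bases before to 50 after the start, the letters were found in 5 of the 29 subunit genes with an entry, or 17.2%, and in 3781 of 27025 genes, or 13.99%. The other 2 subunit genes with a match were Psmc6, an ATPase, and Psmd12, a lid subunit. Neither was called in a comparison with controls. Among subunits that were, Psma3, Psma4, Psmb3, Psmc1, Psmc5, Psmd2, Psmd6, Psmd8 and Psmd11 had an entry and no match.

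In the control mice the spread of each subunit between animals was small beside the range of levels. All 34 tested subunits were well above background in every mouse. Mean control levels on day 1 ran from -0.98 for the Psmd9 probe to 5.77 for the Psmd4 probe, a range that also holds differences between probes. The SD of a subunit within a control group ran from 0.035 to 0.45, with a median of 0.16. For each mouse the median over the 34 subunits summed up the family, and in controls it ran from 2.43 to 2.73 on day 1, from 2.53 to 2.70 on day 3 and from 2.37 to 2.67 on day 7.

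**Figure D1:**
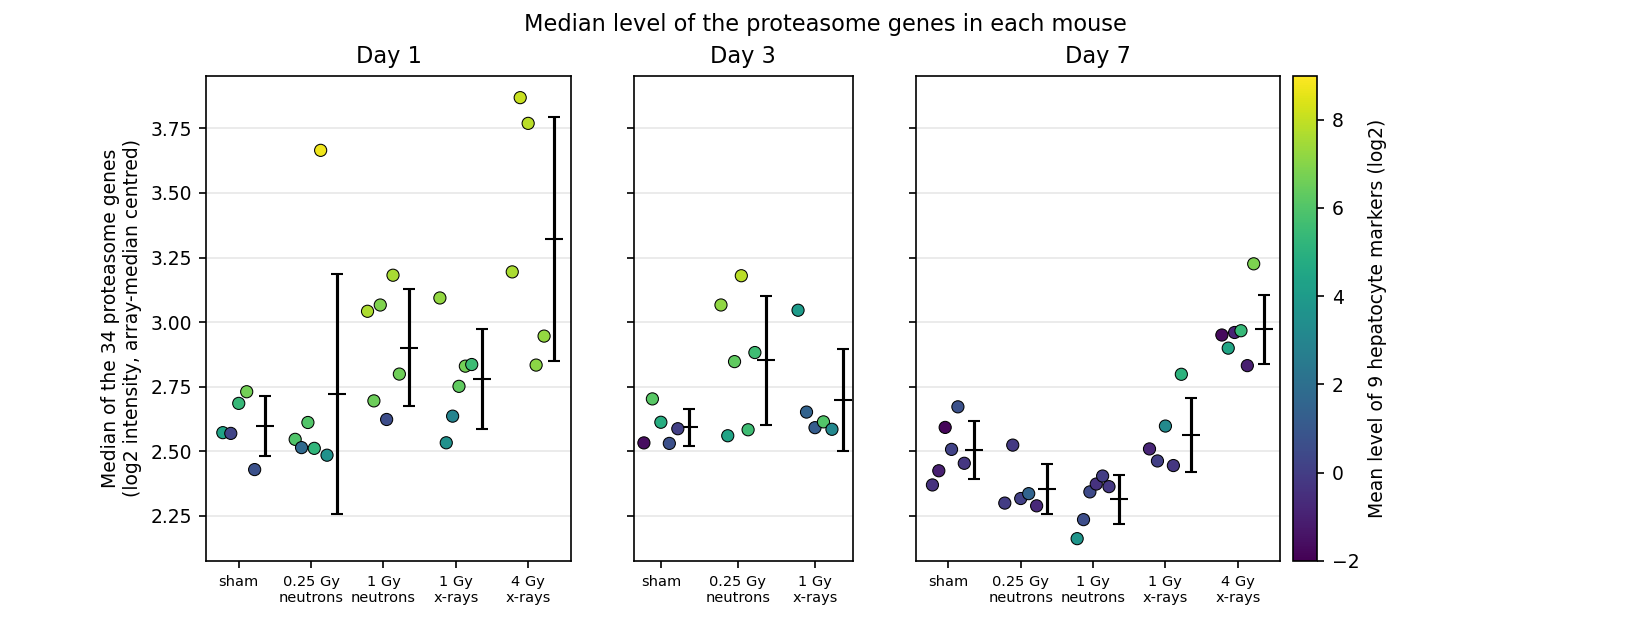
Median level of the 34 tested proteasome subunit genes in each mouse (log2 signal centred on the array median, vertical axis) by exposure and day. Each point is a mouse, coloured by its mean hepatocyte marker level, and each bar shows the mean and SD of its group. On day 7 the 4 Gy x-ray mice lie between 2.83 and 3.23, all above the controls, which lie between 2.37 and 2.67.

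On day 1 the subunits were higher after 4 Gy of x-rays than in controls, with members of the core, the ATPases and the lid among those that passed the test. A gene was called when limma gave an unadjusted p under 0.001 and a Benjamini-Hochberg adjusted p under 0.05 over all 16086 genes. By this rule 7 of 34 subunits rose and none fell after 4 Gy of x-rays, where 12.8% of all genes were called higher and 16.6% lower. The median log2 change over the subunits was 0.64 against -0.088 over all genes, and 31 of 34 had a positive change. By part, the median change was 0.66 in the alpha ring, 0.77 in the beta ring, 0.63 in the ATPases and 0.65 in the lid, and 0.27 in the 3 scaffold and receptor genes of the base and 0.17 in the 3 chaperones.

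Among the catalytic subunits, Psmb6, which carries the caspase-like site, stood at 4.21, 4.37, 4.37, 4.50 and 4.08 in the 5 controls and at 5.49, 6.24, 6.22, 5.00 and 4.87 in the 5 mice given 4 Gy of x-rays. All irradiated mice were above all controls, and the change was 1.26 ± 0.28 (SE) on the log2 scale, or 2.39-fold, with an adjusted p of 0.00277. Psmb5, which carries the chymotrypsin-like site, stood at 5.07, 5.23, 5.01, 5.16 and 4.95 in controls and 6.21, 6.44, 6.45, 5.99 and 5.92 after 4 Gy. Those groups did not overlap either, and the change of 1.12 ± 0.16 (adjusted p = 0.000236) was still called when any single mouse was left out. Psmb7, with the trypsin-like site, had a change of 0.84 ± 0.21 that did not pass. Called genes said here and below not to overlap between groups were picked by a test on the same values. How often called genes in general had no overlap was not computed.

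In the outer ring, Psma3 (alpha 7) rose by 0.87 ± 0.19, from 4.18 ± 0.21 (SD, n = 5) to 5.06 ± 0.33 (SD, n = 5), and the other 6 alpha subunits had changes between 0.31 and 0.90 that did not pass. Of the 6 ATPases, which thread substrates into the core, Psmc1 stood at 3.95, 3.79, 3.85, 4.22 and 3.77 in controls and at 4.81, 5.67, 5.54, 4.55 and 4.68 after 4 Gy of x-rays. Its groups did not overlap, with a change of 1.14 ± 0.24, and Psmc3 rose by 0.88 ± 0.18. In the lid, Psmd11 stood at 1.01, 1.26, 1.31, 1.44 and 0.95 in controls and at 2.32, 2.44, 2.30, 1.84 and 1.97 after 4 Gy, with no overlap and a change of 0.98 ± 0.17 (adjusted p = 0.000802). Psmd9 rose by 1.11 ± 0.22, from -0.98 ± 0.17 (SD, n = 5) to 0.14 ± 0.46 (SD, n = 5). The second detected probes of Psmb5, Psmc1, Psmc3 and Psmd9 gave 0.75 ± 0.23, 0.97 ± 0.26, 0.63 ± 0.19 and 0.58 ± 0.22 in this comparison, in the same direction, and none of them passed. The ubiquitin receptor Psmd4 and the lid deubiquitinase Psmd14 gave -0.18 and -0.14, and the base chaperone Psmd10 gave -0.40, none of which passed.

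The number of subunits called after 4 Gy of x-rays was sensitive to single mice: leaving out 1 gave between 2 and 10 calls. It was 2 without control 3 or control 5, 3 without control 1 or control 2, and 3 without x-ray mouse 1, 2 or 3. With quantile normalization 3 subunits were called, with normexp background correction 0, and with the slide or the scan date as a random block 13 or 14. The share of all genes called in these fits is not given. The irradiated mice shared no slide or scan date with the controls, so these blocks cannot tell batch and exposure apart.

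After 1 Gy of neutrons on day 1, 2 subunits rose and none fell, where 5.63% of all genes were called higher and 10.7% lower. The lid subunit Psmd11 had control values of 1.01, 1.26, 1.31, 1.44 and 0.95 and ran from 1.85 to 2.54 (median 2.19) in the 6 neutron mice. The groups did not overlap and the change was 1.02 ± 0.16 (adjusted p = 0.00110), which was called without any single mouse. Psmb7 had control values of 1.39, 1.42, 1.54, 1.85 and 1.57 and ran from 1.93 to 2.57 (median 2.28) after neutrons, again with no overlap and a change of 0.70 ± 0.14. The Psmb7 call was lost without control 1, 2, 3 or 5 or neutron mouse 6. The count of calls fell to 1 without control 1, 3 or 5 or neutron mouse 6. The median change over the subunits was 0.28, against -0.078 over all genes. The catalytic and ubiquitin-handling genes Psmb5, Psmb6, Psmd4 and Psmd14 gave 0.57, 0.47, -0.23 and -0.066, none of them called. In Psmc6 a single outlier spot was dropped, so its neutron group held 5 mice, and its change of 0.063 did not pass. Within the scan date that held all 5 controls and 4 of the neutron mice, the median change was 0.24 and 1 subunit was called.

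The lower x-ray and neutron doses gave no call among the subunits on day 1. After 1 Gy of x-rays, where 6.48% of all genes were called in either direction, the median change was 0.21, 31 of 34 changes were positive and 12 had an unadjusted p under 0.05. The highest was Psma3 at 0.52 ± 0.14 and the lowest Psmd2, a scaffold of the base, at -0.31 ± 0.15. The smallest p was that of Psma3 (0.52 ± 0.14, adjusted p = 0.0242), and Psmb5, Psmb6, Psmb7, Psmd4 and Psmd14 gave 0.41, 0.38, 0.35, -0.29 and 0.21. Without control 1, 1 subunit was called. After 0.25 Gy of neutrons, where 0.00622% of all genes were called, the median change was 0.17 with 0 of 34 at an unadjusted p under 0.05. There the smallest p was that of Psmb3 (0.31 ± 0.15, adjusted p = 0.356), and Psmb5, Psmb6, Psmb7, Psmd4 and Psmd14 gave 0.28, 0.20, 0.28, 0.087 and 0.23. A single mouse stood apart in that group: neutron mouse 5 had a median over the subunits of 3.66, while the other 5 lay between 2.48 and 2.61. Without it the median change was -0.0068.

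The level of hepatocyte transcripts moved with the subunits on day 1. Of the 28 mice, 14 had a median over the subunits above that of the highest control, and all 14 had a hepatocyte marker level of at least 5.54. The other mice had marker levels of up to 6.66. The 9 mice with a marker level over 7 had subunit medians between 2.83 and 3.87. The 8 mice with a level under 5 had medians between 2.43 and 2.64. These ranges did not overlap, but mice with a level between 5 and 7 had medians from 2.51 to 3.07, which reach into both. All 5 mice given 4 Gy of x-rays had marker levels between 7.10 and 8.08, above the controls at 0.22 to 6.66, and all 19 markers were well above background in each of them. The neutron mouse that stood apart after 0.25 Gy had a marker level of 8.74, the highest of that day. With the hepatocyte level as a covariate none of the 7 subunits was called after 4 Gy of x-rays, Psmb6 having a change of 1.00 and Psmb5 of 1.07, while Psmd11 was still called after 1 Gy of neutrons at 0.91. Blood cell markers moved as well after 4 Gy of x-rays, with 13 of 17 erythroid, 9 of 9 B cell and 7 of 10 T cell markers called lower, and 1 T cell and 3 of 7 monocyte markers higher and 1 monocyte marker lower. The mean level of the B cell markers ran from -1.96 to -0.72 in these mice against 2.55 to 3.28 in controls, and that of the erythroid markers from 0.12 to 1.84 against 3.26 to 4.16. The part of blood cell markers in the day 1 changes was not tested, and that of liver transcripts not beyond this covariate, since the ranges of exposed mice and controls did not meet after 4 Gy.

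**Figure D2:**
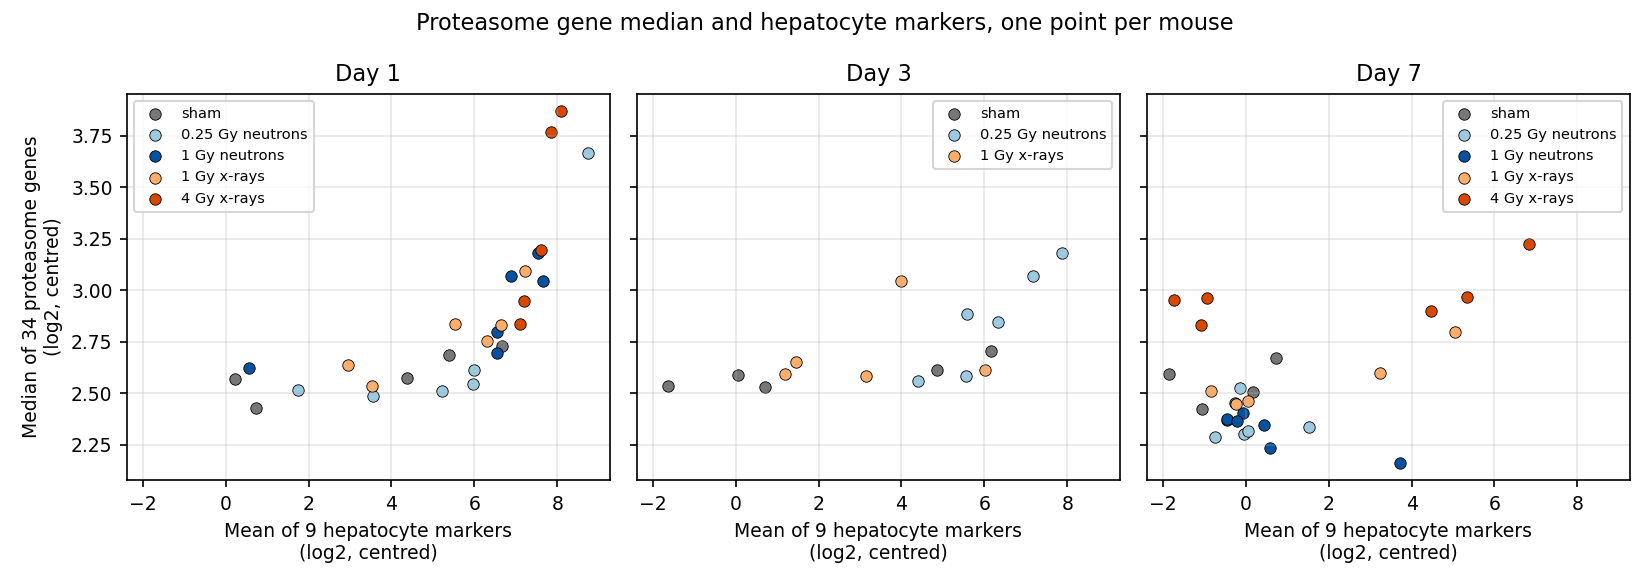
Median level of the 34 subunit genes (vertical axis, log2 signal centred on the array median) against the mean level of the 9 detected hepatocyte markers (horizontal axis, same scale), with a point for each mouse coloured by exposure. On day 1 the 9 mice with a marker level over 7 have subunit medians of 2.83 to 3.87, and on day 7 the 4 Gy x-ray mice lie above the controls at low as well as high marker levels.

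On day 3 a single subunit passed. Psmd8, a lid subunit, rose after 0.25 Gy of neutrons, where 0.547% of all genes were called higher and 0.995% lower. It stood at 2.12, 2.12, 2.10, 1.94 and 1.91 in controls and ran from 2.44 to 2.79 (median 2.63) in neutron mice, with no overlap and a change of 0.57 ± 0.12 (adjusted p = 0.0431). The call was lost when any mouse but neutron mouse 1 was left out, and all 6 neutron mice were liver-rich against 2 of 5 controls. The median change over the subunits was 0.16, and within the scan date of the controls, with 2 neutron mice, it was 0.12 with no subunit called. The catalytic genes and those that bind or remove ubiquitin did not pass, and Psmb5, Psmb6, Psmb7, Psmd4 and Psmd14 gave 0.10, 0.11, 0.094, 0.39 and 0.21. After 1 Gy of x-rays, where 1.55% of all genes were called, no subunit passed and 3 had an unadjusted p under 0.05. The median change was 0.10, with changes from -0.35 for Psmb3 to 0.63 for Psmd4. The Psmb3 value rests on x-ray mouse 5, at 2.11 against 4.53 to 5.86 in the other 4 mice, and without it the change was 0.28. The smallest p was that of Psmd4 (0.63 ± 0.18, adjusted p = 0.109), and Psmb5, Psmb6, Psmb7 and Psmd14 gave 0.55, -0.038, 0.26 and 0.47. The Psmb5 value rests in part on x-ray mouse 1, at 6.79, which was the highest of its 5 mice.

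On day 7 the called subunits went both ways after 1 Gy of neutrons. Of the 7 beta ring genes, 3 were called lower, as was a lid subunit, and 2 of the 7 had a positive change that was not called. The ubiquitin receptor, a scaffold of the base, another lid subunit and a base chaperone were called higher. With 4 subunits higher and 4 lower of 34, the shares stood below those of all genes, 18.4% of which were called higher and 17.8% lower. The median change over the subunits was -0.30, against -0.054 over all genes, and 23 of 34 were negative.

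Psmd4, which binds the ubiquitin tag, changed most. It ran from 5.54 to 6.60 (median 6.38) in the 6 controls and from 6.86 to 8.27 (median 7.86) in the 6 neutron mice, with no overlap. Its change was 1.52 ± 0.25 or 2.86-fold (adjusted p = 0.000199). Psmd8 ran from 2.06 to 2.25 (median 2.19) in controls and from 2.58 to 3.76 (median 3.26) after neutrons. It did not overlap between groups and rose by 1.03 ± 0.18. Psmd2, the scaffold that receives substrate shuttles, rose by 0.70 ± 0.16, from a control range of 2.37 to 3.04 (median 2.70) to 3.07 to 3.64 (median 3.45) after neutrons, also without overlap. Psmd9 rose by 0.79 ± 0.17, from a control range of -1.40 to -0.87 (median -1.13) to -0.90 to 0.048 (median -0.33), and its groups overlapped. A second detected probe of Psmd9 gave -0.28 ± 0.17 in the same comparison, which did not pass, so the probes of this gene disagreed.

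Among the genes that fell, the catalytic subunit Psmb6 ran from 4.19 to 4.58 (median 4.38) in controls and from 3.16 to 3.77 (median 3.499) after neutrons. The groups did not overlap and the level fell by 0.91 ± 0.13 (adjusted p = 7.87e-05). Psmb3 and Psmb1, beta subunits without a cutting site, fell by 0.84 ± 0.19 and 0.70 ± 0.13, and Psmd3, of the lid, by 0.67 ± 0.16, all without overlap. Like the genes that rose, these were picked by a test on the same values, so the lack of overlap adds no separate evidence. The catalytic subunits Psmb5 and Psmb7 had changes of -0.33 ± 0.13 and 0.16 ± 0.14 that did not pass, nor did the deubiquitinase Psmd14 at -0.72 ± 0.18. None of the 7 alpha subunits or 6 ATPases passed, with medians of -0.34 and -0.36, and the lowest of them was Psma6 (alpha 1) at -0.84 ± 0.21.

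These calls depended on the scaling of the arrays. The 4 that fell stayed negative under each alternative run, but Psmd4 was 0.46 with quantile normalization and 0.065 with normexp background correction, neither of them called. Centring on the spike-in controls moved the median of all genes to -1.93, and all 4 that rose then turned negative, Psmd4 to -0.36, while Psmd2 and Psmd8 were also negative with normexp, at -0.56 and -0.25. With scan date as a block 1 of the 8 remained called, namely Psmb6, in a fit whose contrast rests on neutron mouse 1, the 1 liver-rich neutron array and the only one scanned on the date of the controls. The erythroid markers moved in the same comparison: 16 of 17 were called higher and their mean level ran from 5.54 to 6.64 after neutrons against 3.32 to 4.06 in controls. Of the other blood cells, 7 of 9 B cell and 3 of 10 T cell markers were called lower and 4 of 9 neutrophil markers higher, with a mean B cell level of 0.59 to 1.15 against 2.67 to 3.00 in controls. Their part in the result was not tested. Leaving out that liver-rich array gave 6 calls and a median change of -0.24. The count of calls fell to 4 without control 4, 5 or 6 or neutron mouse 2, and to 5 without control 1 or neutron mouse 5 or 6, and Psmd4, Psmd8, Psmb1 and Psmb6 were called in each of these fits.

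**Figure D3:**
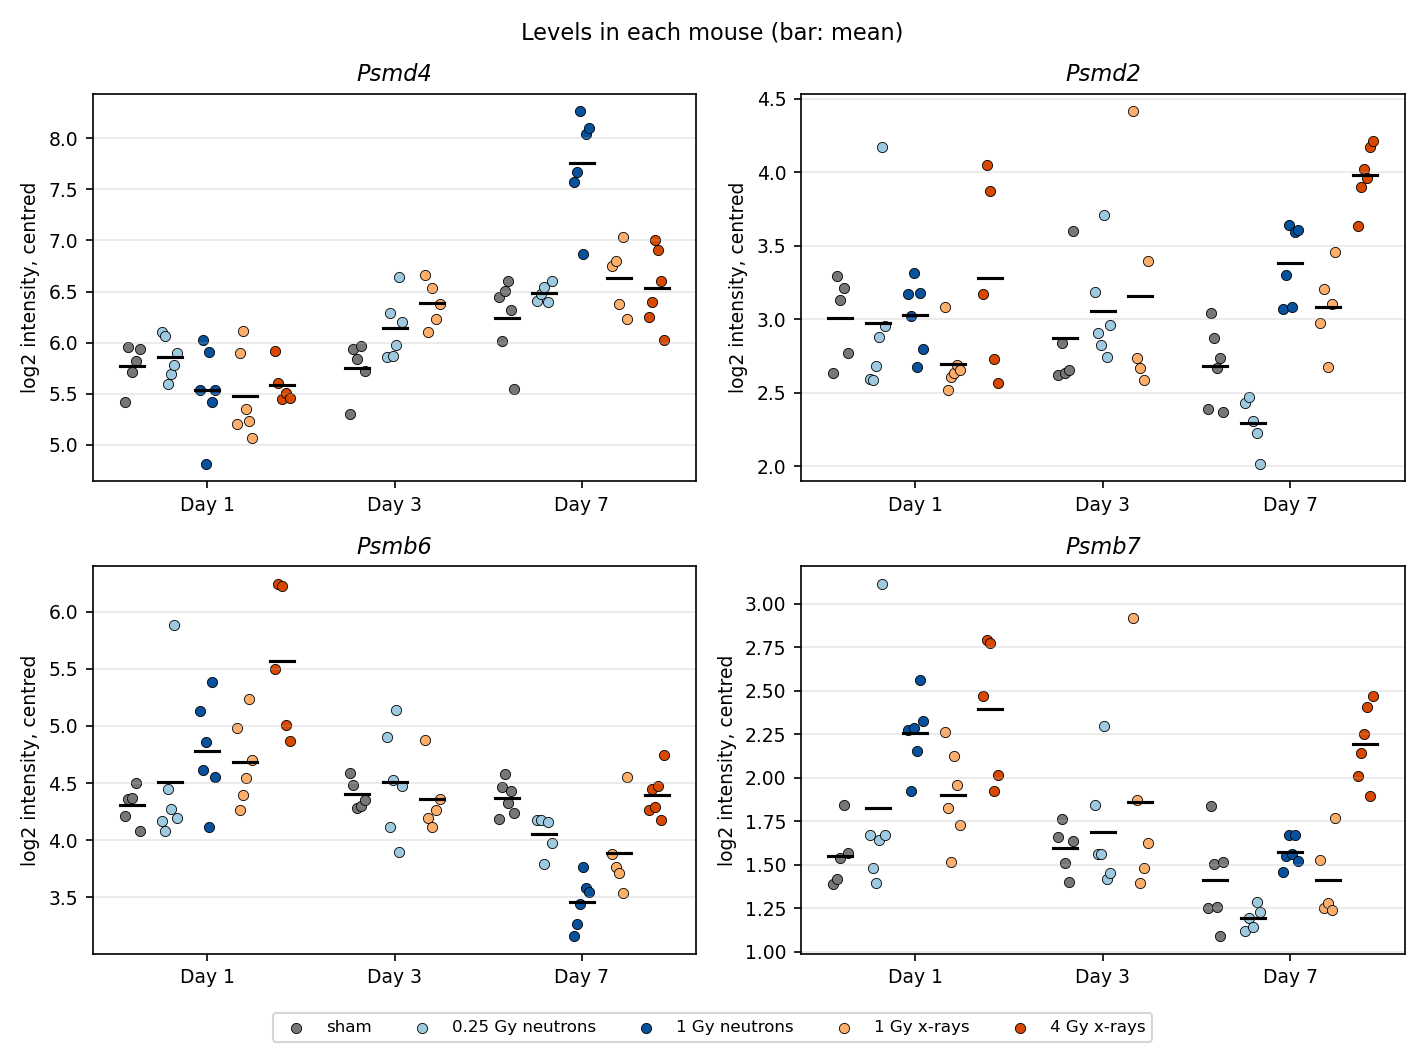
Level in each mouse (log2 signal centred on the array median, vertical axis) of Psmd4, Psmd2, Psmb6 and Psmb7 by exposure and day; points are mice and bars are group means. On day 7 Psmd4 is highest after 1 Gy of neutrons (6.86 to 8.27), Psmb6 lowest there, and Psmd2 highest after 4 Gy of x-rays.

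After 4 Gy of x-rays on day 7 subunits of every part of the complex rose, with the scaffold Psmd2, the ATPase Psmc5 and the chaperone Psmd9 changing most. Of 34, 8 rose and none fell, where 7.71% of all genes were called higher and 8.11% lower. The median change was 0.23 against -0.049 over all genes, and the median over the subunits in each mouse did not overlap with the controls.

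Psmd2 ran from 2.37 to 3.04 (median 2.70) in controls and from 3.63 to 4.21 (median 3.99) after 4 Gy of x-rays. The groups did not overlap and the change was 1.30 ± 0.15, or 2.47-fold (adjusted p = 4.45e-05). The ATPase Psmc5 ran from 1.57 to 2.25 (median 1.98) in controls and from 2.84 to 3.30 (median 2.99) after exposure, with no overlap and a change of 1.10 ± 0.13. Psmd9 ran from -1.40 to -0.87 (median -1.13) and -0.32 to 0.37 (median -0.029), again without overlap and with a change of 1.13 ± 0.16, while its second probe gave 0.34 ± 0.14. The catalytic Psmb7 was the one beta ring gene that passed, at 0.79 ± 0.15, from a control range of 1.09 to 1.84 (median 1.38) to 1.89 to 2.47 (median 2.20). The lid genes Psmd8 and Psmd6 rose by 0.74 ± 0.12 and 0.66 ± 0.12, Psma4 (alpha 3), whose probe the array annotation places on another chromosome than the gene, by 0.59 ± 0.13 and Psmc3 by 0.48 ± 0.092. The second probes of Psma4 and Psmc3 gave 0.36 ± 0.15 and 0.42 ± 0.15, which did not pass. On the probes used, none of these groups overlapped with the controls, but the genes were picked by a test on the same values. The share without overlap among all called genes was not computed. All but Psma4 were called without any single mouse. The Psma4 call was lost without control 1, 4 or 5 or x-ray mouse 1, 2 or 4. Psmb6 and Psmb5, the other catalytic genes, had changes of 0.027 ± 0.12 and 0.24 ± 0.12 that did not pass, although a second detected probe of Psmb5 gave 0.69 ± 0.16, which did. Psmd4 and Psmd14 gave 0.29 and -0.25, neither of them called.

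Liver transcripts were present in only part of this group: 3 of the 6 x-ray mice were liver-rich and none of the controls was, in which 7 of 19 hepatocyte markers (Apoa1, Apob, Ttr, Fga, Hpx, Cps1 and Cyp3a11) were well above background in no mouse. The 3 x-ray mice that were not liver-rich had subunit medians of 2.83 to 2.96, still above all controls. A fit without the liver-rich arrays gave a median change of 0.19 and 4 calls, namely Psmc5, Psmd2, Psmd8 and Psmd9. Markers of blood cells moved in this comparison too, with 9 of 9 B cell and 2 of 10 T cell markers called lower, and 4 of 6 NK cell, 6 of 17 erythroid, 3 of 9 neutrophil and 3 of 7 monocyte markers higher and 1 monocyte marker lower. The mean B cell level ran from -0.41 to 0.14 after 4 Gy against 2.67 to 3.00 in controls, and the part of these cells in the result was not tested. With normexp background correction 0 of 8 were called, Psmd2 having a change of 1.12. The 4 Gy mice and the controls were scanned on different dates, so scan date and exposure cannot be told apart here.

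The other day 7 groups had no called subunit. After 1 Gy of x-rays, where 3.74% of all genes were called, the median change was -0.10, 7 of 34 had an unadjusted p under 0.05, and changes ran from -0.61 for Psma6 to 0.40 for Psmd2. The smallest p was that of Psmb1 (-0.51 ± 0.14, adjusted p = 0.0429), and Psmb5, Psmb6, Psmb7, Psmd4 and Psmd14 gave -0.22, -0.48, 0.0027, 0.40 and -0.50. Without x-ray mouse 5, 1 subunit was called. After 0.25 Gy of neutrons, where 0.566% of all genes were called, the median change was -0.13, 27 of 34 changes were negative and 9 had an unadjusted p under 0.05, with Psmb3 lowest at -0.69 ± 0.19. There Psmb3 (-0.69 ± 0.19, adjusted p = 0.0814) had the smallest p, and Psmb5, Psmb6, Psmb7, Psmd4 and Psmd14 gave -0.027, -0.32, -0.22, 0.25 and -0.10. Without control 2, 1 subunit was called. Spike-in centring called 19 subunits in the 0.25 Gy comparison, where it moved the median of all genes to -0.99. The median over the subunits minus that of all genes was -0.11 in the same fit, so the count cannot be read apart from this shift.

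**Figure D4:**
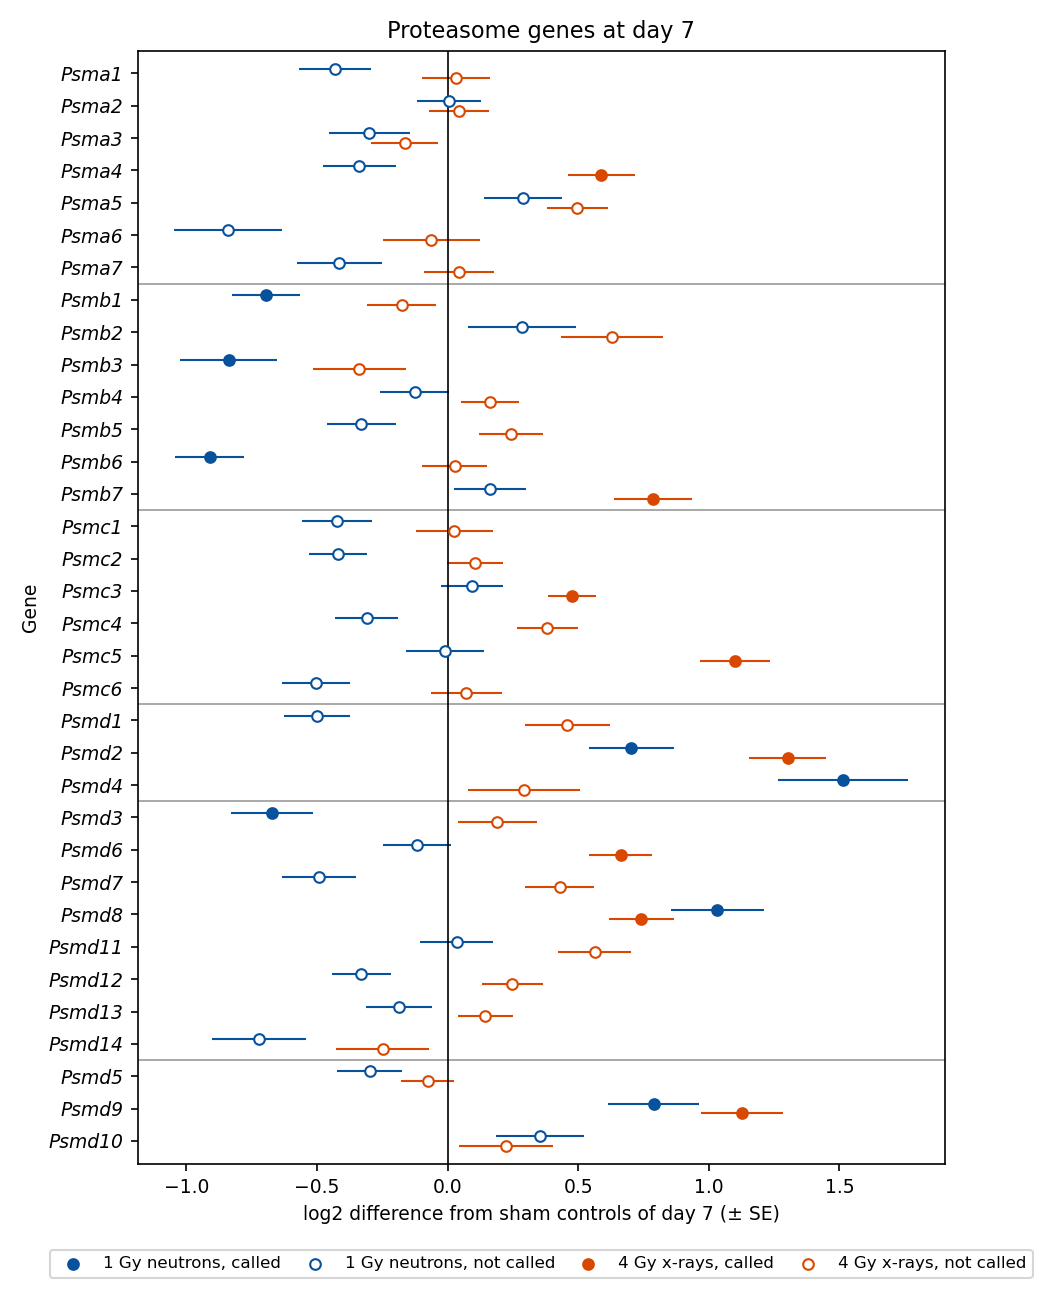
Change against day 7 controls (log2, horizontal axis) of each of the 34 subunit genes, grouped by part of the proteasome, after 1 Gy of neutrons and after 4 Gy of x-rays; bars are standard errors and filled points passed the test. After neutrons Psmd4 lies at 1.52 and Psmb6 at -0.91, and after x-rays Psmd2 lies at 1.30.

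Whether an exposure acted differently on days 1 and 7 was tested as the effect on day 7 minus the effect on day 1. For 1 Gy of neutrons 1 subunit had a higher effect on day 7 and 7 had a lower one, where 16.1% of all genes were called higher and 7.95% lower. Psmd4 was the one that was higher, by 1.74 ± 0.34, from an effect of -0.23 on day 1 to 1.52 on day 7, and this turned to -0.63 with spike-in centring. Of the beta ring, Psmb6 (-1.38 ± 0.24), Psmb3 (-1.24 ± 0.31), Psmb5 (-0.90 ± 0.18) and Psmb1 (-0.69 ± 0.18) were lower. Psma6 (-1.13 ± 0.28) and the lid genes Psmd11 (-0.99 ± 0.21) and Psmd13 (-0.70 ± 0.17) were lower too. Psmb7 and Psmd14 gave -0.54 and -0.66, which were not called. The median over the subunits was -0.56 against -0.10 over all genes. The count was 5 without day 1 control 1, 4 or 5 or day 7 neutron mouse 2.

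After 4 Gy of x-rays the effect on day 7 was lower than on day 1 in 4 subunits and higher in none, with 11.3% of all genes called higher and 8.46% lower. These were the catalytic Psmb6 (-1.23 ± 0.29) and Psmb5 (-0.88 ± 0.18), Psmc1 (-1.11 ± 0.27) and Psma3 (-1.04 ± 0.21), and they came down from effects between 0.87 and 1.26 on day 1. Psmb7, Psmd4 and Psmd14 gave -0.059, 0.48 and -0.11, none of them called. The count was 2 without day 1 control 5. For 1 Gy of x-rays 3 were lower and none higher, with 5.04% of all genes called higher and 2.15% lower: Psmb3 (-0.89 ± 0.22), Psmb1 (-0.73 ± 0.16) and Psma3 (-0.69 ± 0.18). In the same test Psmb5, Psmb6, Psmb7, Psmd4 and Psmd14 gave -0.62, -0.86, -0.35, 0.69 and -0.70. Leaving out day 1 control 5, day 1 x-ray mouse 5 or 6, day 7 control 6 or day 7 x-ray mouse 2 gave 1 call, and leaving out day 7 x-ray mouse 5 gave 5. The median hepatocyte level was lower on day 7 than on day 1 in these exposures and in the controls, at 4.37 and -0.35 in controls and 7.60 and 1.76 after 4 Gy of x-rays. With the hepatocyte level as a covariate the counts of these day 7 minus day 1 calls stayed within 1.5 times those reported. Its part in these differences was not tested beyond this covariate.

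**Figure D5:**
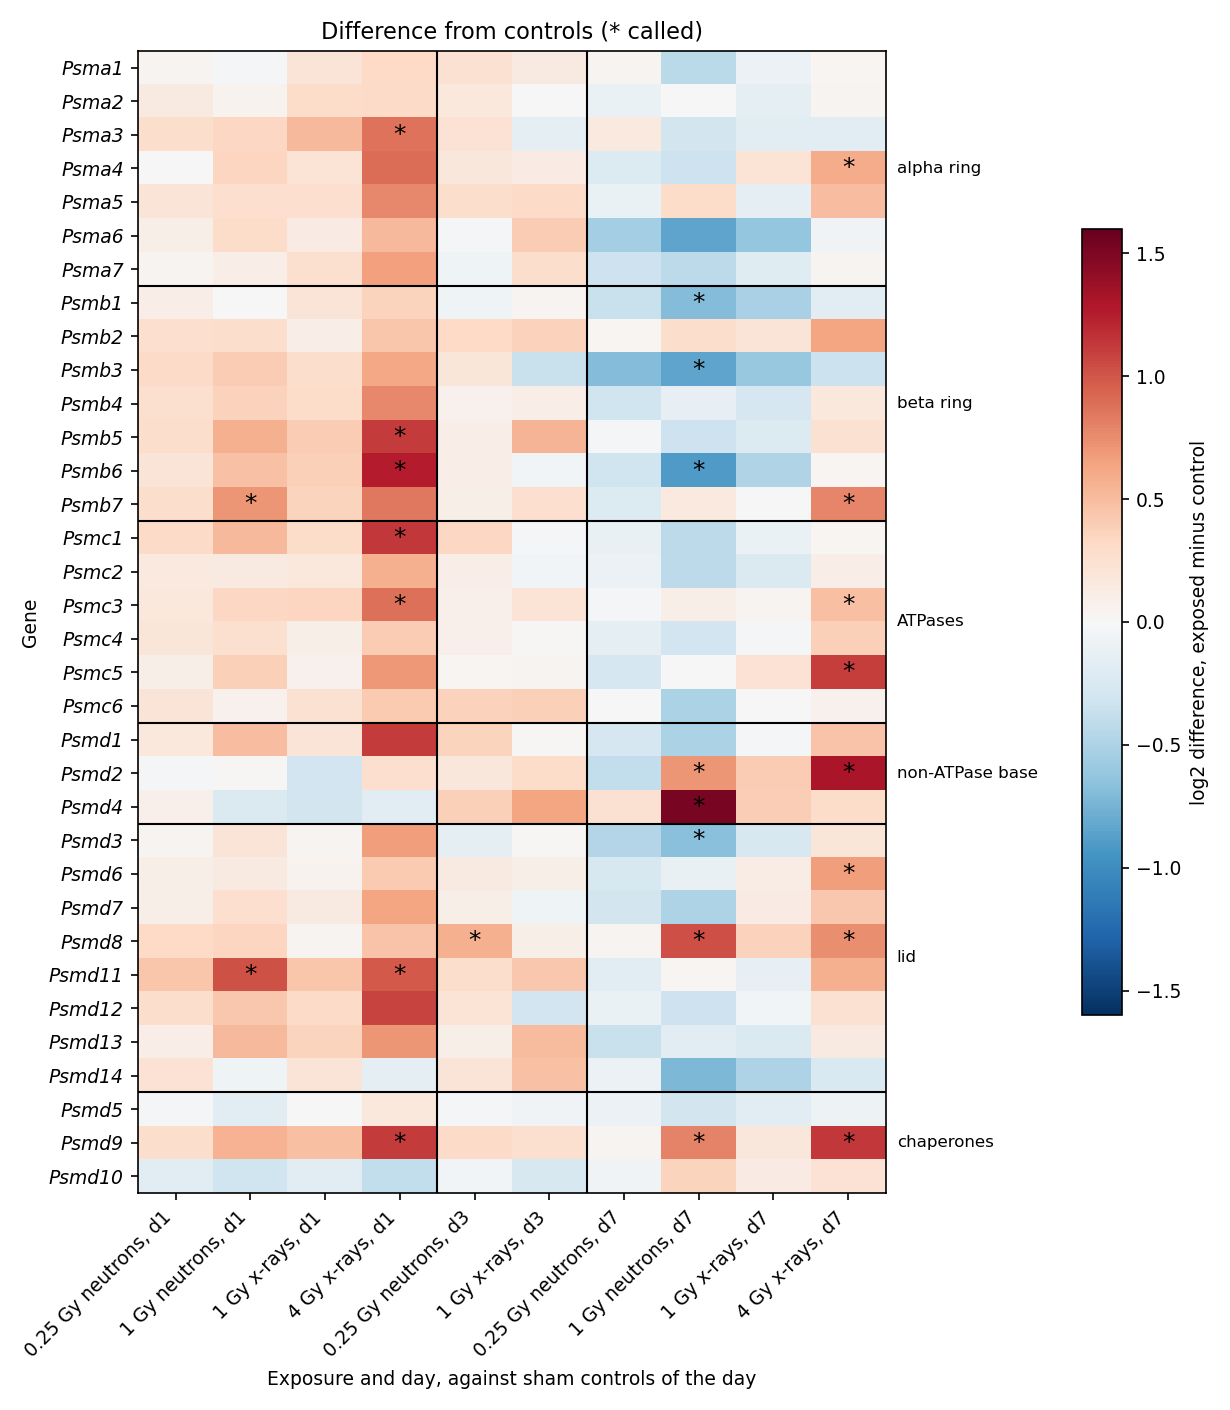
Log2 change against the controls of the day for the 34 subunit genes (rows, ordered by part of the proteasome) in the 10 exposures and days (columns), with a mark on each called change. The day 1 column for 4 Gy of x-rays is positive for 31 of 34 genes and the day 7 column for 1 Gy of neutrons is negative for 23.

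Neutrons and x-rays were also compared directly on the same day. On day 1 no subunit differed between 1 Gy of neutrons and 1 Gy of x-rays, where 9.65% of all genes did and 4 subunits had an unadjusted p under 0.05. The smallest p was that of Psmd11 (0.58 ± 0.14, adjusted p = 0.0137), and Psmb5, Psmb6, Psmb7, Psmd4 and Psmd14 gave 0.16, 0.090, 0.35, 0.063 and -0.27. Without neutron mouse 3, 1 was called. None differed from 4 Gy of x-rays on that day either, where 0.0311% of all genes did and 8 subunits had an unadjusted p under 0.05. With the slide as a random block 6 subunits were called, and the share of all genes in that fit is not given. The median difference from 4 Gy was -0.35, the smallest p was that of Psmb5 (-0.55 ± 0.17, adjusted p = 0.177), and Psmb5, Psmb6, Psmb7, Psmd4 and Psmd14 gave -0.55, -0.79, -0.14, -0.046 and 0.077.

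On day 7 Psmd4 was higher after 1 Gy of neutrons than after 1 Gy of x-rays by 1.12 ± 0.25, where 13.1% of all genes were called higher and 6.99% lower. It ran from 6.86 to 8.27 (median 7.86) against 6.75, 6.79, 6.37, 7.03 and 6.23 in the 5 x-ray mice, and the groups overlapped. The call was lost without any of neutron mice 1, 2, 3, 5 and 6 or x-ray mice 1, 2, 3 and 5, and the difference was -0.43 with normexp. The other genes of that set did not pass, as Psmb5, Psmb6, Psmb7 and Psmd14 gave -0.11, -0.43, 0.16 and -0.23. Against 4 Gy of x-rays 1 subunit was higher after neutrons and 14 were lower, with 22.7% of all genes called higher and 14.7% lower.

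Those 14 covered every part of the complex except the chaperones. Psmc5 differed by -1.11 ± 0.14, with neutron values of 1.61 to 2.20 (median 1.99) and x-ray values of 2.84 to 3.30 (median 2.99). The scaffold Psmd1 differed by -0.96 ± 0.16, Psmb6 by -0.94 ± 0.14, Psma4 by -0.93 ± 0.15 and the lid gene Psmd7 by -0.92 ± 0.15. Psmd3 (-0.86), Psma6 (-0.78), Psmd6 (-0.78), Psmc4 (-0.69), Psmb7 (-0.62), Psmd12 (-0.58), Psmb5 (-0.57), Psmb1 (-0.52) and Psmc2 (-0.52) made up the rest. None of the 14 overlapped between the groups, but they were picked by a test on the same values. The share without overlap among all called genes was not computed. Psmd14 was not called at -0.47. Psmd4 was the one that was higher, by 1.22 ± 0.24 with overlapping groups, and its difference was -0.12 with quantile normalization and -1.02 with spike-in centring. With scan date as a block 0 of the 15 were called, in a fit whose contrast rests on neutron mouse 6, the only one scanned on the date of the x-ray mice. Without the liver-rich arrays 1 was called. Direct comparisons shared their mice with the comparisons above and are not independent of them.

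Other genes of the pathway were examined by a list. Of 36 listed, 35 were tested, and on day 7 after 1 Gy of neutrons 10 of them rose and 5 fell, against 18.4% and 17.8% of all genes. The list holds activators and an inhibitor of the core, assembly factors, the immunoproteasome, ubiquitin genes and substrate carriers. The activators Psme3 and Psme4 rose by 1.98 ± 0.27 and 1.98 ± 0.25, and Psmf1, an inhibitor of the core, by 2.97 ± 0.25. The ubiquitin gene Ubb rose by 2.27 ± 0.17. With spike-in centring, which moved the median of all genes down in this comparison, Psme3, Psme4 and Ubb were at 0.10, 0.10 and 0.40, none of them called. In that fit 4 of the 15 called genes of the list turned, and 1 gene was called higher and 23 lower, while with normexp 2 were called higher and 2 lower. Of 5 assembly factors, 4 fell, from Psmg1 at -0.67 ± 0.14 to Psmg4 at -1.20 ± 0.17. The immunoproteasome genes Psmb8, Psmb9 and Psmb10 had changes of -0.53, -0.34 and -0.58, and none passed.

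In the same list, 4 rose and 1 fell on day 7 after 4 Gy of x-rays, against 7.71% and 8.11% of all genes, with Psme4 at 1.96 ± 0.17 and the ubiquitin-activating enzyme Uba1 at 1.57 ± 0.16. With 4 Gy of x-rays on day 1, 3 rose and 4 fell, against 12.8% and 16.6% of all genes. The maturation factor Pomp, which assembles the beta ring, rose by 1.502 ± 0.17, and Nfe2l1, a transcription factor of proteasome genes, by 0.89 ± 0.19, neither of them called with normexp. On day 7 after 1 Gy of x-rays 3 rose and none fell, against 3.74% of all genes called in either direction. The remaining comparisons with controls had at most 2 calls, where between 1 and 2632 of all genes were called.

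Over the 10 comparisons with controls, 17 of the 34 subunits were called at least once and the other 17 never. The latter were Psma1, Psma2, Psma5, Psma6, Psma7, Psmb2, Psmb4, Psmc2, Psmc4, Psmc6, Psmd1, Psmd5, Psmd7, Psmd10, Psmd12, Psmd13 and Psmd14. Their changes ran from -0.84 ± 0.21 for Psma6 on day 7 after 1 Gy of neutrons to 1.12 ± 0.29 for Psmd1 with x-rays at 4 Gy on day 1. In that x-ray comparison Psmd1 stood at 2.54, 2.42, 2.71, 2.76 and 2.22 in controls and at 3.22, 4.39, 4.35, 3.17 and 3.13 after exposure, and the groups did not overlap although the test was not passed (adjusted p = 0.00614). The chaperones Psmd5 and Psmd10 stayed within -0.40 and 0.35 of controls in all 10 comparisons. The deubiquitinase Psmd14 ran from -0.72 on day 7 after 1 Gy of neutrons to 0.47 on day 3 after 1 Gy of x-rays.

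The probes set a limit on these values. Of the 34 probes used, 25 had a position in the array annotation on build mm9, and 23 of those lay on the chromosome of the gene. The probes of Psma4 and Psma5 were placed on other chromosomes, so which transcript they measured is uncertain. For 8 subunits there was more than 1 detected probe, and in 17 of 80 pairs of a gene and a comparison 2 such probes had changes of opposite sign, the widest gap being 1.06 for Psmd9 on day 7 after 1 Gy of neutrons. For the lid gene Psmd12 on day 7 after 4 Gy of x-rays the probe used gave 0.25 ± 0.12, which did not pass, and its second probe gave 1.31 ± 0.17, which did.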

How the data were processed

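Whole-blood RNA of 72 mice was hybridised by the authors to 1-colour Agilent mouse arrays, 1 array a mouse. Per the file headers, the deposited intensities are processed signals of Agilent Feature Extraction 12.0.2, with spatial background subtracted, and they are not normalized between arrays. The depth of an array is not defined, and the number of mice, 5 or 6 a group, limits the precision. A deposited table of processed log2 values by the authors has 72 columns, of which 12 followed the array of their own sample and 60 another array. Of those 60, 21 followed an array of another group. The table was used only for these counts. Whether the table or the labels of the intensity files place those arrays correctly was not tested, and every comparison rests on the labels.

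From the intensities, outlier spots were dropped, repeated spots were averaged as log2, and the median over detected probes was subtracted within an array. A probe was detected when fewer than 25% of its day 1 and day 7 spots were not well above background or were otherwise poor (19808 of 39429 probes). The brightest detected probe stood for a gene. Exposures were compared with the controls of the day in separate limma fits (limma 3.58.1, R 4.3.3), after the methods of the study. A gene was called at p under 0.001 and a Benjamini-Hochberg adjusted p under 0.05 over 16086 genes. The change from day 1 to day 7 was an interaction term over both days. The scripts were tested on simulated data. No pair of arrays held identical values (highest correlation 0.992).

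Groups came from the sample labels. Nothing in them says whether mice of a group shared a litter or cage, so p-values measure the spread between these mice. The subunit genes, marker lists and pathway list were chosen with earlier results of these data known. Named in every comparison were Psmb5, Psmb6, Psmb7, Psmd14 and Psmd4, the called subunit with the largest rise and that with the largest fall, or, with none called, the one with the smallest p, and up to 5 called against the direction of most. Other subunits were named after their values were seen. Marker levels are means of the detected genes of a list. Arrays with a mean hepatocyte level over 2 were taken as liver-rich, a limit set after the data were seen. Alternatives covered the background correction, scaling, filter on dim probes, probe choice, test, 1.5-fold limit, replicate number, scan date and slide as a block, the hepatocyte level as a covariate, and each mouse left out in turn. The slide block, the fits without liver-rich arrays, those within a scan date and the rescaled pathway genes were added after the data were seen. Sequences came from RefSeq on GRCm38.p6, with an entry for 29 of the subunit genes. The probe sequences were not used here.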

Additional observations from a re-analysis of the deposited data

Results flagged for a closer look

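9 values lay far from the rest of their group, out of 78 sets of 5 or 6 mice examined, where chance marks about 1 in 20. The 78 cross the 13 groups of mice with the subunit median, Psmb5, Psmb6, Psmb7, Psmd4 and Psmd14. These measures are not independent and several flags are of the same mouse, so the 9 cannot be set against that rate. On day 1 after 0.25 Gy of neutrons, mouse 5 had a median over the subunits of 3.66, and the catalytic genes Psmb5, Psmb6 and Psmb7 stood there at 6.26, 5.88 and 3.12. The other 5 mice had at most 5.32, 4.45 and 1.67 for the same genes, so this mouse was highest for all 3 of them. Its hepatocyte marker level of 8.74 was the highest of that day, and the part of liver transcripts in these values was not tested.

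On day 3 after 1 Gy of x-rays, mouse 1 had a subunit median of 3.05 and a Psmb5 level of 6.79, against at most 2.65 and 5.62 in the other 4. Its hepatocyte marker level was 4.00, in a group that ran from 1.20 to 6.02. On day 7 the subunit median was 3.23 in mouse 6 given 4 Gy of x-rays, whose hepatocyte level of 6.82 was the highest of its group. It was 2.52 in mouse 2 given 0.25 Gy of neutrons, above the other 4 at up to 2.34. The deubiquitinase Psmd14 stood at 0.51 in day 7 control 2, below the others at 0.95 to 1.21.

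The effect of exposure differed between days 1 and 7, by the interaction test, in 15 cases. For 1 Gy of neutrons Psmd4 differed by 1.74 (day 7 minus day 1), Psmb6 by -1.38, Psmb3 by -1.24, Psma6 by -1.13, Psmd11 by -0.99, Psmb5 by -0.90, Psmd13 by -0.70 and Psmb1 by -0.69. For 1 Gy of x-rays Psmb3 differed by -0.89, Psmb1 by -0.73 and Psma3 by -0.69. After 4 Gy of x-rays Psmb6 differed by -1.23, Psmc1 by -1.11, Psma3 by -1.04 and Psmb5 by -0.88. Psmd4 was the one gene of these with a positive difference, which turned negative with spike-in centring. Whether the differences between days were unequal among the 3 exposures was not tested.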

How the results depend on the processing

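The number of subunits called was recomputed under 225 alternatives over the 17 comparisons, and in 144 it stayed within 1.5 times the reported one. Of 736 refits of the 57 called changes, 485 kept direction and call, 239 kept direction only and 12 turned. The counts that moved were as follows, and the cause was not tested. Counts under other settings, here and in the results above, are given without the share of all genes called in the same fit. They therefore cannot be read as results about the subunits alone. With normexp background correction the number was 0 for 1 Gy of neutrons on day 1, 4 Gy of x-rays on day 1, 0.25 Gy of neutrons on day 3, 4 Gy of x-rays on day 7, 1 Gy of x-rays (day 7 minus day 1) and 4 Gy of x-rays (day 7 minus day 1), 1 for 0.25 Gy of neutrons on day 7, 4 for 1 Gy of neutrons against 4 Gy of x-rays on day 7, and 5 for 1 Gy of neutrons on day 7, 1 Gy of neutrons (day 7 minus day 1) and 1 Gy of neutrons against 1 Gy of x-rays on day 7. With quantile normalization the number was 0 for 0.25 Gy of neutrons on day 3 and 1 Gy of x-rays (day 7 minus day 1), 1 for 1 Gy of neutrons on day 1, 2 for 4 Gy of x-rays (day 7 minus day 1), 3 for 4 Gy of x-rays on day 1, 18 for 1 Gy of neutrons on day 7, and 25 for 1 Gy of neutrons against 4 Gy of x-rays on day 7. Centred on spike-in spots the number was 0 for 0.25 Gy of neutrons on day 3 and 4 Gy of x-rays (day 7 minus day 1), 1 for 1 Gy of neutrons on day 1 and 4 Gy of x-rays on day 1, 2 for 1 Gy of x-rays on day 7, 5 for 4 Gy of x-rays on day 7, 9 for 1 Gy of x-rays (day 7 minus day 1), 16 for 1 Gy of neutrons against 1 Gy of x-rays on day 7, 19 for 0.25 Gy of neutrons on day 7, 32 for 1 Gy of neutrons on day 7, 33 for 1 Gy of neutrons (day 7 minus day 1), and 34 for 1 Gy of neutrons against 4 Gy of x-rays on day 7. Scaled to the 75th percentile the number was 0 for 0.25 Gy of neutrons on day 3, and 5 for 1 Gy of neutrons (day 7 minus day 1). After the 1.5-fold filter of the methods the number was 0 for 0.25 Gy of neutrons on day 3 and 1 Gy of x-rays (day 7 minus day 1), 1 for 1 Gy of neutrons on day 1 and 4 Gy of x-rays (day 7 minus day 1), 3 for 4 Gy of x-rays on day 1 and 1 Gy of neutrons on day 7, 4 for 4 Gy of x-rays on day 7 and 1 Gy of neutrons (day 7 minus day 1), and 7 for 1 Gy of neutrons against 4 Gy of x-rays on day 7. Without the filter on dim probes the number was 0 for 0.25 Gy of neutrons on day 3 and 1 Gy of neutrons against 1 Gy of x-rays on day 7, and 5 for 1 Gy of neutrons on day 7. With the probes of a gene averaged the number was 2 for 4 Gy of x-rays (day 7 minus day 1), and 4 for 4 Gy of x-rays on day 1. With the hepatocyte level as a covariate the number was 0 for 4 Gy of x-rays on day 1, 0.25 Gy of neutrons on day 3 and 1 Gy of neutrons against 1 Gy of x-rays on day 7, and 1 for 1 Gy of neutrons on day 1. With scan date as a block the number was 0 for 0.25 Gy of neutrons on day 3, 1 Gy of x-rays (day 7 minus day 1), 1 Gy of neutrons against 1 Gy of x-rays on day 7 and 1 Gy of neutrons against 4 Gy of x-rays on day 7, 1 for 1 Gy of neutrons on day 1, 1 Gy of neutrons on day 7 and 1 Gy of x-rays on day 7, 2 for 1 Gy of x-rays on day 3 and 1 Gy of neutrons (day 7 minus day 1), and 14 for 4 Gy of x-rays on day 1. With the slide as a block the number was 0 for 0.25 Gy of neutrons on day 3 and 1 Gy of neutrons against 1 Gy of x-rays on day 7, 1 for 1 Gy of x-rays (day 7 minus day 1), 4 for 1 Gy of neutrons on day 1 and 1 Gy of neutrons on day 7, 6 for 1 Gy of neutrons against 4 Gy of x-rays on day 1, and 13 for 4 Gy of x-rays on day 1. Without the liver-rich arrays the number was 0 for 1 Gy of neutrons against 1 Gy of x-rays on day 7, 1 for 1 Gy of x-rays on day 7 and 1 Gy of neutrons against 4 Gy of x-rays on day 7, and 4 for 4 Gy of x-rays on day 7. The random variance test named in the methods and the fit with dim spots set to missing kept all counts within 1.5 times.

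The 12 turned results were all of Psmd2, Psmd4, Psmd8 and Psmd9, which were higher after 1 Gy of neutrons on day 7. With normexp Psmd2 was -0.56 and Psmd8 -0.25 against controls, and Psmd4 was -0.43 against 1 Gy and -0.055 against 4 Gy of x-rays. With quantile normalization Psmd4 was -0.12 against 4 Gy. Centred on spike-in spots, Psmd2 was -1.17, Psmd4 -0.36, Psmd8 -0.84 and Psmd9 -1.09 against controls, and Psmd4 was -0.63 for day 7 minus day 1, -0.024 against 1 Gy and -1.02 against 4 Gy of x-rays. Spike-in centring moved the median of all genes by more than 0.1 in most of the 10 comparisons with controls. That median ran from -1.93 after 1 Gy of neutrons on day 7 to 0.42 after 1 Gy of neutrons on day 1. Centred on the detected probes, it was at most 0.088 in size in the same 10. The high counts with spike-in centring on day 7 are given without the share of all genes and cannot be read apart from this shift. After 1 Gy of neutrons on day 7 the median over the subunits minus that of all genes was -0.25 in that fit.

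Same-numbered mice deviated together (r over 0.1) in 19 of 52 pairs and in no comparison throughout, so the numbers were not taken as pairs. With the replicate number as a block the number called was 0 for 1 Gy of neutrons on day 1, 0.25 Gy of neutrons on day 3, 1 Gy of x-rays (day 7 minus day 1) and 1 Gy of neutrons against 1 Gy of x-rays on day 7, 1 for 4 Gy of x-rays on day 1 and 4 Gy of x-rays (day 7 minus day 1), 2 for 1 Gy of neutrons (day 7 minus day 1), 3 for 1 Gy of neutrons on day 7, 5 for 4 Gy of x-rays on day 7, and 7 for 1 Gy of neutrons against 4 Gy of x-rays on day 7, and other counts stayed within 1.5 times.

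Leaving out each mouse in turn gave these ranges of the number called: 0 throughout for 0.25 Gy of neutrons on day 1, 0 to 1 for 0.25 Gy of neutrons on day 3, 0 to 1 for 0.25 Gy of neutrons on day 7, 0 to 1 for 1 Gy of neutrons against 1 Gy of x-rays on day 1, 0 to 1 for 1 Gy of neutrons against 1 Gy of x-rays on day 7, 0 throughout for 1 Gy of neutrons against 4 Gy of x-rays on day 1, 11 to 14 for 1 Gy of neutrons against 4 Gy of x-rays on day 7, 1 to 3 for 1 Gy of neutrons on day 1, 4 to 12 for 1 Gy of neutrons on day 7, 5 to 12 for 1 Gy of neutrons (day 7 minus day 1), 0 to 1 for 1 Gy of x-rays on day 1, 0 throughout for 1 Gy of x-rays on day 3, 0 to 1 for 1 Gy of x-rays on day 7, 1 to 5 for 1 Gy of x-rays (day 7 minus day 1), 2 to 10 for 4 Gy of x-rays on day 1, 7 to 9 for 4 Gy of x-rays on day 7, and 2 to 5 for 4 Gy of x-rays (day 7 minus day 1). Of 824 such refits of called changes, 618 kept the call, 206 lost it and none turned.

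A scan-date block could not be fitted for 0.25 Gy of neutrons on days 1 and 7, which lay in 1 date with their controls, or for 4 Gy of x-rays on day 7, where each group lay in 1 date of its own. No x-ray group shared a scan date or a slide with the controls of its day, so the random blocks used there do not tell batch and exposure apart. The date blocks for 1 Gy of neutrons on day 7 rest on neutron mouse 1 against controls and on neutron mouse 6 against 4 Gy of x-rays. Fits without liver-rich arrays needed 2 mice a group and could not be made on day 1, for neutrons on day 3 or for day 7 minus day 1. Some called subunits did not pass the 1.5-fold filter and have no value under it. All 34 subunits were well above background in every mouse. Their levels were centred on the median of all detected probes, and calls changed with the background correction. Whether low signal elsewhere on the arrays moved these levels was not tested.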

Other observations

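Among the pathway genes outside the family, the unfoldase Vcp and the assembly factor Pomp were also compared between days. After 1 Gy of neutrons the effect on day 7 minus that on day 1 was 1.83 ± 0.31 for Vcp, which was called higher, and -0.54 with spike-in centring. Pomp had a difference of -1.03 ± 0.24 after 1 Gy of neutrons and -1.17 ± 0.19 after 4 Gy of x-rays, both called lower. For 4 Gy of x-rays no gene of the list was called with normexp, and none was called lower with spike-in centring. The Pomp call for that exposure was thus lost under both. Between 1 Gy of neutrons and 4 Gy of x-rays on day 7, Ubb differed by 2.90 ± 0.24, Psmf1 by 2.70 ± 0.28 and the deubiquitinase Uchl5 by -1.05 ± 0.13, all called. With spike-in centring Ubb and Psmf1 were at 0.66 and 0.46 and not called. With normexp 0 genes of the list were called higher and 1 lower in that comparison, and 3 of the 16 called genes turned. In all, 7 of the 35 tested pathway genes were higher and 9 lower after neutrons in that comparison, against 22.7% and 14.7% of all genes.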
